A study of Homo sapiens with 6 samples.

Results

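The genes that make, bind, sense and clear retinoic acid were compared between an androgen-sensitive prostate cancer line and its enzalutamide-resistant derivative. The set holds 10 of the 35554 genes in the count table and was chosen by gene name. It comprises the retinal dehydrogenases ALDH1A1, ALDH1A2 and ALDH1A3, the short-chain enzymes RDH11 and DHRS3, the binding protein CRABP2, the receptors RARA, RARB and RARG, and the degrading enzyme CYP26A1. Parental LNCaP cells (n = 3) are an established line from metastatic prostate carcinoma. LNCaP-enzaR cells (n = 3) were derived from them by continuous exposure to enzalutamide, which blocks androgen signaling, and were kept on a lower concentration of it afterwards. Neither line carries an engineered change according to the labels, and the sources do not say whether the resistant line is a single clone or whether the drug was present at harvest. Each line has 1 culture history, so the libraries measure the spread between cultures of these particular lines.

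Retinoic acid is made from vitamin A in a pair of oxidation steps. Retinol is reversibly converted to retinal by short-chain dehydrogenases and reductases, and ALDH1A enzymes then oxidize retinal to retinoic acid irreversibly. CRABP2 carries retinoic acid to the nucleus, where RAR proteins bind DNA together with retinoid X receptors (RXR) and switch genes on when the ligand is bound. CYP26 enzymes hydroxylate retinoic acid and so remove it. RARB, CYP26A1 and DHRS3 are well-known retinoic acid–induced genes, and the induction of CYP26A1 and DHRS3 makes the pathway self-limiting. In the prostate, retinoids are known to favor epithelial differentiation, and RDH11 was first described as an androgen-regulated prostate enzyme.

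Libraries held 77759122 to 98616465 counts. All 8 luminal prostate markers examined were above 1 CPM (counts per 1000000 after TMM scaling) in the mean over libraries. Their summed levels were 4710 to 4842 CPM in parental cells and 3005 to 3307 CPM in LNCaP-enzaR. The sum does not describe each luminal marker, as KRT8 and KRT18 were higher in LNCaP-enzaR (log2 fold changes 1.16 and 0.50). Summed markers of other cell types were below the luminal sums, given here for parental cells and then LNCaP-enzaR. For 3 basal epithelial genes they were 0.923 to 1.71 and 0.433 to 0.800 CPM, and KRT5 and TP63 held at most 3 counts in every library. For 4 fibroblast genes they were 14.1 to 17.2 and 6.73 to 7.16 CPM, and 2 of these genes had a mean of at least 1 CPM. These fibroblast sums were near the level of ALDH1A3, at means of 13.8 and 6.60 CPM. Leukocyte sums (4 genes) were 0.154 to 0.184 and 0.0679 to 0.209 CPM, and endothelial sums (3 genes) 5.47 to 6.10 and 3.93 to 4.35 CPM. The part of these marker levels in the results was not tested. Mitochondrial genes took 6.87% ± 0.174 of each parental library and 15.1% ± 0.415 of each resistant library (SD, n = 3 each). Without the mitochondrial genes, as many retinoic acid genes were called, in the same directions. In bulk RNA, fewer cells expressing a gene and less of its RNA per cell cannot be told apart.

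Of the 10 genes, 8 had enough counts to be tested and 7 of these differed between the lines (edgeR quasi-likelihood test, Benjamini-Hochberg adjusted over 19711 genes, with limits of 0.05 for the adjusted p and 1.5 for the fold). RARA, RDH11 and ALDH1A2 were higher in LNCaP-enzaR. RARB, DHRS3, ALDH1A3 and RARG were lower. CRABP2 was tested and did not pass, and ALDH1A1 and CYP26A1 had too few counts for the test. Among all tested genes, 42.7% passed this threshold, 23.3% higher and 19.5% lower, so a call by itself was common in this comparison. The size of the change set RARB and DHRS3 apart from the others: their absolute log2 fold changes exceeded those of 93.8% and 94.1% of the tested genes, whereas the remaining called genes lay between 60.2% and 71.8%. In 7 of the 8, all libraries of one line lay above all of the other, as was so for 70.6% of all tested genes. The median log2 fold change of the 8 was −0.47, and that of all genes was 0.01.

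**Figure D1:**
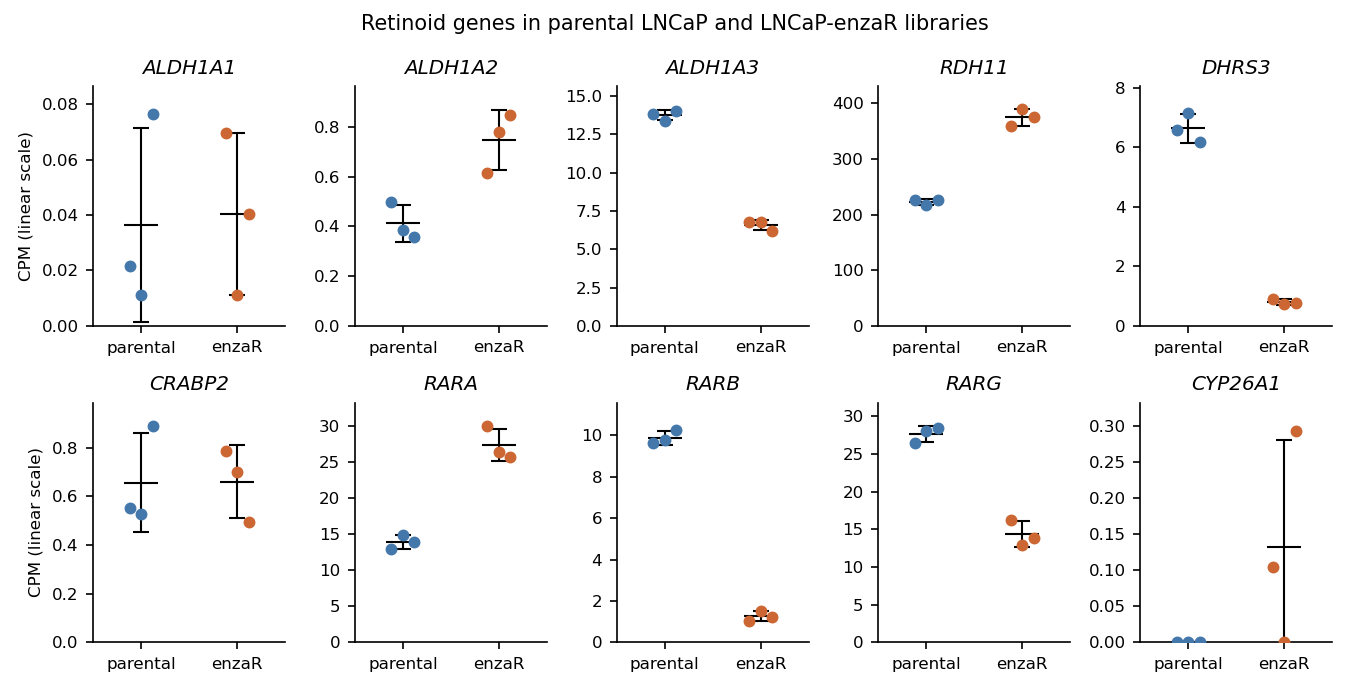
Expression in CPM (linear axes from 0, a separate scale per gene) of the 10 retinoic acid genes in each of 3 parental LNCaP (blue) and 3 LNCaP-enzaR (orange) libraries, with the mean and SD as bars (the lower bar of CYP26A1 is cut at 0). RARB and DHRS3 libraries of LNCaP-enzaR lie near the bottom of their panels, at 1.05 to 1.52 and 0.736 to 0.904 CPM, while CRABP2 and ALDH1A1 overlap between the lines.

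Transcripts of the enzymes that form retinoic acid were mostly those of ALDH1A3, and they were lower in LNCaP-enzaR. ALDH1A3 (ENSG00000184254.17, chromosome 15, 100877714 to 100916626, GRCh38), which oxidizes retinal to retinoic acid, was at 13.9, 13.4 and 14.0 CPM in the parental libraries and at 6.78, 6.80 and 6.22 CPM in LNCaP-enzaR. Every resistant library was below every parental library. Its log2 fold change was −1.06 (SE 0.083, edgeR adjusted p = 4.68e-08), a 2.09-fold decrease. In the annotation used here 33.3% of the exonic bases of ALDH1A3 lie in exons of other genes. Of these, the antisense ALDH1A3-AS1 held 1 to 10 counts per library, and a same-strand gene is not analysed here, so its part in the ALDH1A3 counts was not tested.

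ALDH1A2 and ALDH1A1 contributed little RNA. ALDH1A2 (ENSG00000128918.15, chromosome 15, 57953424 to 58497866), the enzyme that supplies retinoic acid in much of the embryo, had 46, 35 and 28 counts in the parental libraries and 53, 69 and 84 in LNCaP-enzaR. These are levels of 0.413 ± 0.074 and 0.747 ± 0.120 CPM (SD, n = 3 each). The fitted log2 difference was 0.85 (SE 0.285, edgeR adjusted p = 0.0167), or 1.81-fold. The groups did not overlap, but the call was lost without parental replicate 3 (0.76, adjusted p = 0.0563) or without LNCaP-enzaR replicate 3 (0.76, adjusted p = 0.0648), and the adjusted p ranged from 0.00867 to 0.0648 over the alternatives. ALDH1A1 (ENSG00000165092.13, chromosome 9, 72900671 to 73080442), often used as a stem-cell marker in tumors, held 2, 1 and 6 counts in the parental libraries and 6, 1 and 4 in the resistant ones. At this depth no difference was detectable for it. Per exonic length, ALDH1A3 made up 97.6% ± 0.345 of the summed ALDH1A level of the parental line and 92.1% ± 1.11 of that of LNCaP-enzaR. The summed level itself went from 2.64 ± 0.075 to 1.34 ± 0.052 RPKM (CPM per kilobase of exon, SD, n = 3 each).

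The retinal reductases moved in opposite directions. RDH11 (ENSG00000072042.13, chromosome 14, 67676800 to 67695793), an endoplasmic reticulum enzyme that reduces retinal to retinol, was the most abundant gene of the set in both lines. It was at 226, 217 and 226 CPM in parental cells and at 359, 390 and 376 CPM in LNCaP-enzaR, with a wide gap between the groups. Its log2 fold change was 0.75 (SE 0.053, edgeR adjusted p = 1.39e-08), or 1.68-fold. DHRS3 (ENSG00000162496.9, chromosome 1, 12567910 to 12618210), which also reduces retinal and thereby limits retinoic acid formation, was at 6.59, 7.15 and 6.17 CPM in parental cells. In LNCaP-enzaR it was at 0.904, 0.736 and 0.756 CPM, with 65 to 78 counts per library left. This decrease of 8.32-fold (log2 fold change −3.06, SE 0.141, edgeR adjusted p = 1.39e-10) was the largest among the 8 tested genes. The ratio of DHRS3 to RDH11 within a library, which does not depend on how libraries are scaled, differed by −3.79 on the log2 scale between the lines, with every resistant library below every parental one. A two-sided exact permutation test gave p = 0.10 (0.20 adjusted over 4 ratios), the smallest that 3 against 3 libraries allow.

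CRABP2 (ENSG00000143320.9, chromosome 1, 156699606 to 156705816), the carrier that hands retinoic acid to RAR, was low in both lines. It held 51, 48 and 70 counts in the parental libraries and 68, 62 and 49 in LNCaP-enzaR, so the groups overlapped. The log2 fold change was 0.01 (SE 0.301, edgeR adjusted p = 0.972). The size of this standard error leaves room for changes past the 1.5-fold limit.

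RARB, itself induced by retinoic acid, had the largest decrease among the receptors. RAR and RXR typically bind a direct repeat of 2 hexamers, and such repeats at the RARB and CYP26A1 promoters are textbook retinoic acid response elements, so the matching stretches are shown here. RefSeq promoter windows (GRCh38.p14, from 250 bases before to 50 after an annotated start) were searched on both strands for 2 hexamers with 5 bases between them. Each hexamer could be AGGTCA, which is the usual form, or the variant spelled AGTTCA, or the variant spelled GGGTCA, or the variant spelled GGTTCA. The repeat was found in 31 of 35116 windows, or 0.0883%. Among the 19 windows of the 10 genes, 2 held it, 1 for RARB and 1 for CYP26A1, the genes for which it was already known. The allowed hexamers include the spellings of both repeats, so these 2 hits could be foreseen and do not measure enrichment. None was found in 36 windows of other retinoid pathway genes or in 15 of retinoic acid target genes. Windows were available for 22 of the 28 listed pathway genes and 11 of the 17 listed target genes. Repeats with other spacings or hexamers, or outside these windows, were not searched for, so the absence of response elements cannot be concluded. The stretches below are 30 bases long, read 5′ to 3′ with the hexamers in capitals, at chr3:25428204-25428233 on the plus strand for RARB and chr10:93073797-93073826 on the minus strand for CYP26A1, opposite to the gene.
RARB: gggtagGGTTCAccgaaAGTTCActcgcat
CYP26A1: gacaattAGTTCAcccaaAGTTCAtcttta
The RARB repeat spans positions −53 to −37 relative to the start at 25428263. Of 23 RARB transcripts in GENCODE v44, it lies upstream of 10, in an intron of 8, in a noncoding stretch of an exon of 3 and downstream of 2. The CYP26A1 repeat spans positions −90 to −74 relative to the start at 93073893, upstream of 5 of 6 transcripts and in a noncoding stretch of an exon of the remaining 1. Counts per gene do not tell which start was used, and matching letters do not show binding. Of 29 genes with this repeat in any window, 11 were tested. Of these 11, RARB included, 4 were lower and 2 higher past the threshold. Among all tested genes 42.7% passed, 19.5% lower and 23.3% higher. Their median log2 fold change was −0.53, against 0.01 for all genes.

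RARB (ENSG00000077092.19, chromosome 3, 25174332 to 25597932) was at 9.62, 9.76 and 10.3 CPM in parental cells and at 1.05, 1.52 and 1.22 CPM in LNCaP-enzaR. The groups were far apart, at 807 to 890 counts in parental cells and 91 to 134 in the resistant line. RARB was 7.81-fold lower in LNCaP-enzaR (log2 fold change −2.97, SE 0.132, edgeR adjusted p = 9.56e-11). RARA (ENSG00000131759.18, chromosome 17, 40309180 to 40357643), the most broadly expressed RAR, went the other way. It held 1202, 1349 and 1098 counts in the parental libraries and 2584, 2337 and 2553 in the resistant ones, with no overlap. RARA rose from 13.9 ± 0.923 to 27.4 ± 2.25 CPM, or 1.96-fold (log2 fold change 0.97, SE 0.082, edgeR adjusted p = 9.23e-08). In the annotation used here 21.4% of its exonic bases lie in exons of opposite-strand genes. Of these, RARA-AS1 held 110 to 129 counts in the parental line and 163 to 197 in LNCaP-enzaR, fewer than RARA in every library. RARG (ENSG00000172819.17, chromosome 12, 53210567 to 53232980), the receptor typical of epithelia, held 2446, 2547 and 2234 counts in the parental libraries and 1406, 1142 and 1372 in LNCaP-enzaR, again with no overlap. RARG fell from 27.6 ± 1.06 to 14.4 ± 1.74 CPM, or 1.93-fold (log2 fold change −0.94, SE 0.087, edgeR adjusted p = 2.38e-07).

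The most abundant receptor transcript differed between the lines. Per exonic length, RARG made up 57.5% ± 0.640 of the summed RAR level in parental cells, RARA 31.3% ± 1.01 and RARB 11.2% ± 0.375. In LNCaP-enzaR, RARA made up 66.3% ± 1.03, RARG 32.1% ± 1.38 and RARB 1.56% ± 0.391 (SD, n = 3 each). The summed RAR level overlapped between the groups, at 9.37 ± 0.399 RPKM in parental cells and 8.71 ± 0.778 RPKM in LNCaP-enzaR. The log2 ratio of RARG to RARA was 0.88 ± 0.062 in parental cells and −1.05 ± 0.085 in LNCaP-enzaR, with all 3 resistant libraries below all 3 parental ones. The means differed by −1.92 (two-sided exact permutation test, p = 0.10, the smallest possible, and 0.20 adjusted over 4 ratios).

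**Figure D2:**
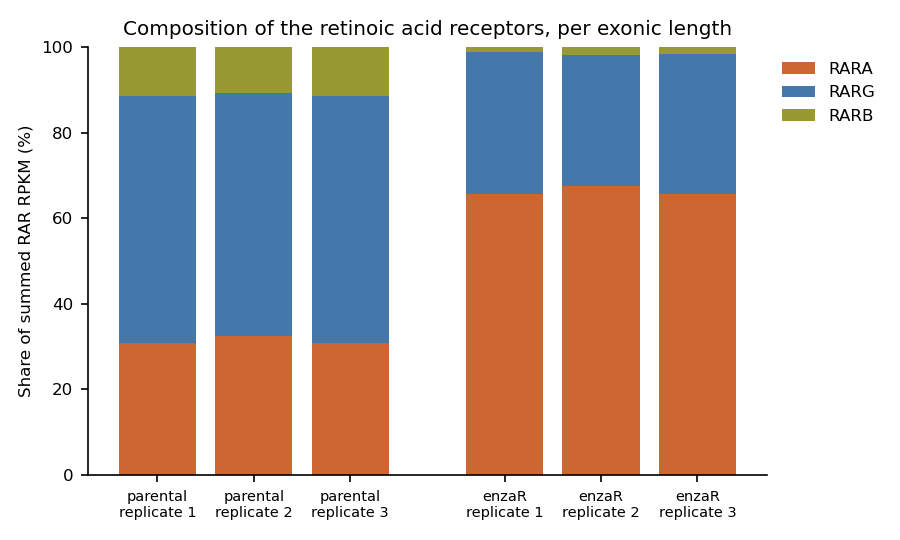
Share (percent) of RARA, RARG and RARB in the summed RAR level per exonic length (RPKM), as stacked bars for each of the 6 libraries. RARG is the largest part in the 3 parental libraries (56.8% to 57.9%) and RARA in the 3 LNCaP-enzaR libraries (65.7% to 67.5%).

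CYP26A1 (ENSG00000095596.12, chromosome 10, 93073475 to 93077885), the main inducible enzyme of retinoic acid breakdown, was not detected in parental cells. It held 0 counts in each parental library, which allows up to 0.0324 to 0.0382 CPM (3 counts), and 9, 0 and 29 counts in LNCaP-enzaR replicates 1, 2 and 3. Its reads thus came from 2 of 3 resistant libraries, and replicate 2 was as empty as the parental libraries. Against the parental limit, the LNCaP-enzaR mean of 0.132 ± 0.148 CPM was at least 3.46-fold higher, a bound that was 1.37-fold without replicate 3 and 5.19-fold without replicate 2. The gene did not pass the filter on low counts. The adjusted p was 0.211 by DESeq2 and 0.000121 by edgeR without that filter. In the annotation used here 25.3% of its exonic bases lie in an exon of a same-strand gene that is not analysed here. The ratio of CYP26A1 to RARA differed by 1.71 (two-sided exact permutation test, p = 0.40), and by 0.64 and 3.03 without LNCaP-enzaR replicates 3 and 2. The log2 ratio of ALDH1A1 to ALDH1A3 differed by 1.24 (two-sided exact permutation test, p = 0.20), again on few counts.

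Per exonic length, the order of the genes in parental cells was RDH11 (40.6 RPKM), RARG (5.39), RARA (2.94), ALDH1A3 (2.58), DHRS3 (1.89), RARB (1.05), CRABP2 (0.607), ALDH1A2 (0.0508), ALDH1A1 (0.0128) and CYP26A1 at 0. Neighbors in this order did not overlap over the 3 libraries, but the order of ALDH1A1 (1 to 6 counts) and CYP26A1 (0 counts, which allows up to 3) was not resolved at this depth. In LNCaP-enzaR the order of RPKM levels was RDH11 (68.3), RARA (5.77), RARG (2.80), ALDH1A3 (1.24), CRABP2 (0.611), DHRS3 (0.227), RARB (0.134), ALDH1A2 (0.0920), CYP26A1 (0.0446) and ALDH1A1 (0.0142). Here ALDH1A2 overlapped with CYP26A1, and CYP26A1 with ALDH1A1. RARA thus ranked above RARG, and CRABP2 above DHRS3 and RARB.

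The wider pathway was examined in 28 further genes of uptake, storage, oxidation, reduction, binding, clearance and RXR. Of these, 15 were tested, 8 passed the threshold as higher in LNCaP-enzaR and 1 as lower (against 23.3% higher and 19.5% lower of all tested genes). The median log2 fold change was 0.76, also with genes near the detection limit set to their bound, against 0.01 for all genes. Most of the 8 were at low levels. RXRA, an RXR partner of RAR, was the exception in abundance. It was at 175, 171 and 171 CPM in parental cells and at 314, 283 and 279 CPM in LNCaP-enzaR (log2 fold change 0.76, SE 0.057, edgeR adjusted p = 2.79e-08). RXRB was at 36.7 ± 2.04 and 46.1 ± 2.73 CPM (SD, n = 3 each), which stayed under the fold limit (log2 fold change 0.33), and RXRG held 0 to 4 counts per library.

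Another clearance enzyme, unlike CYP26A1, was higher in all resistant libraries than in any parental library. CYP26B1, which hydroxylates retinoic acid as CYP26A1 does, held 10, 14 and 12 counts in the parental libraries and 132, 96 and 121 in LNCaP-enzaR (log2 fold change 3.20, SE 0.303, edgeR adjusted p = 3.36e-07). CYP26C1, the neighbor of CYP26A1, held 0 to 2 counts per library and was not tested. AKR1B10, a retinal reductase of the aldo-keto reductase family, rose from 0.0809 ± 0.056 to 1.95 ± 0.192 CPM (log2 fold change 4.58). The short-chain dehydrogenases RDH12 and RDH16 rose from 0.386 ± 0.052 to 1.10 ± 0.184 CPM (1.51) and from 0.636 ± 0.050 to 1.18 ± 0.134 CPM (0.89). In the annotation used here 22.8% of the exonic bases of RDH12 lie in exons of the opposite-strand gene ZFYVE26 (log2 fold change 0.40). The part of ZFYVE26 in the RDH12 counts was not tested. ADH1C, an alcohol dehydrogenase whose reads may be shared with its close copies, held 233 to 295 counts in the parental line and 1 to 2 in LNCaP-enzaR, so it was at least 89.3-fold lower. The other genes that passed, LRAT, BCO2 and SDR16C5, stayed below 1 CPM in both lines, and BCO2 was no longer called without LNCaP-enzaR replicate 2 (2.09, edgeR adjusted p = 0.0534). RDH10, the main retinol dehydrogenase of the embryo, was at 13.5 ± 0.430 and 13.5 ± 0.287 CPM (log2 fold change 0.00, SE 0.074, adjusted p = 0.967).

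**Figure D3:**
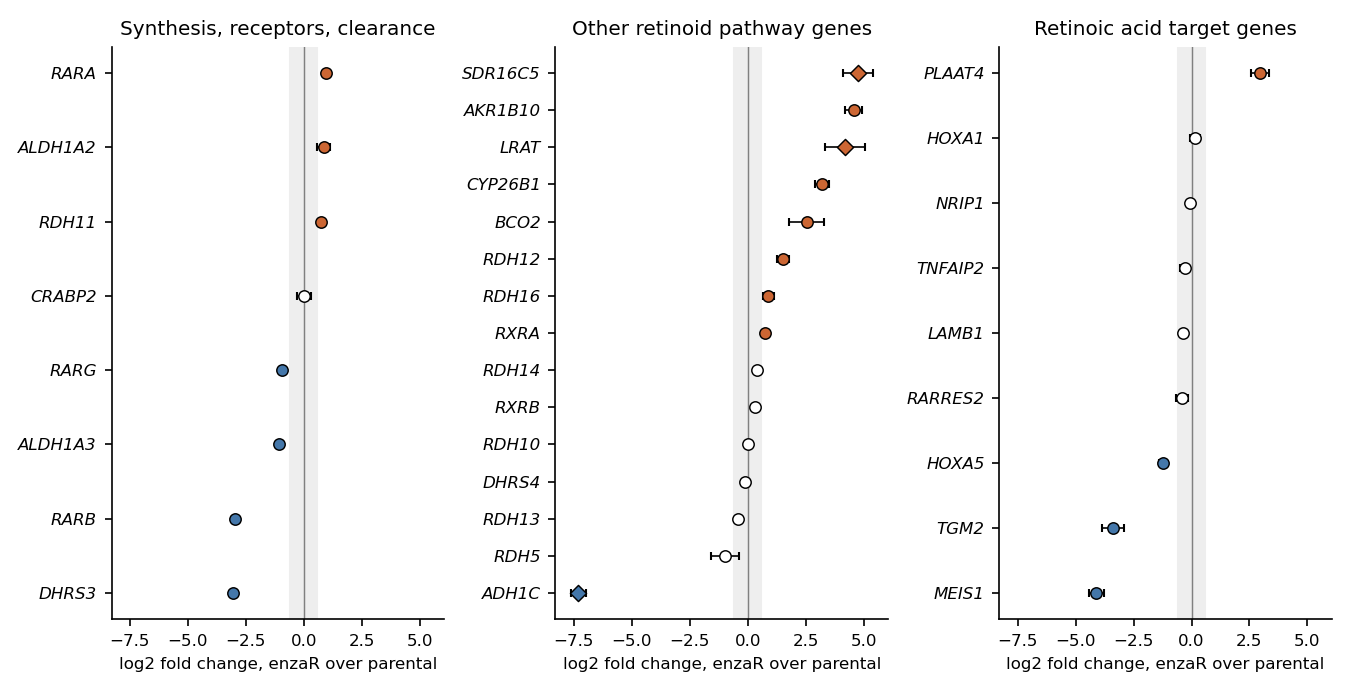
Log2 fold change of LNCaP-enzaR over parental LNCaP with its SE (bars) for the tested genes of the retinoic acid set, the wider pathway and the target list. Filled points passed the threshold (orange higher, blue lower), open points did not, the grey band marks changes under 1.5-fold, and diamonds mark genes with at most 3 counts per library in 1 line, whose fitted value is not a bound. DHRS3 (−3.06) and RARB (−2.97) stand lowest in the first panel, and most filled points of the second panel lie to the right.

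Further genes known to be induced by retinoic acid in other cells were called about as often as other genes. This list leaves out RARB (log2 fold change −2.97), DHRS3 (−3.06) and CYP26A1 (too few counts for the test), which belong to the retinoic acid set. It also leaves out the wider pathway genes, of which 8 were called higher and 1 lower. CYP26B1 (3.20) and LRAT (at least 4.34-fold) are among those higher. Of the 17 target genes listed, 9 were tested, 3 were lower and 1 was higher past the threshold. Among all tested genes 42.7% passed, 19.5% lower and 23.3% higher. The median log2 fold change was −0.35, against 0.01 for all genes. MEIS1, a homeobox factor, fell from 2.48 ± 0.133 to 0.143 ± 0.105 CPM (log2 fold change −4.11, edgeR adjusted p = 5.67e-08, and −4.83 without LNCaP-enzaR replicate 2). HOXA5, a homeobox gene of the anterior HOXA cluster, fell from 3.43 ± 0.254 to 1.45 ± 0.063 CPM (−1.24). The third lower gene, the transglutaminase TGM2, was below 1 CPM in both lines. PLAAT4, a phospholipid acyltransferase once named retinoic acid receptor responder 3, rose from 0.156 ± 0.081 to 1.23 ± 0.470 CPM (2.94, edgeR adjusted p = 1.35e-05).

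The genes were also set beside their chromosomal neighbors, the tested genes whose midpoints lay within 1 Mb. DHRS3 was lower than all 22 of its neighbors, whose median log2 fold change was 0.54. That median includes genes of the PRAMEF family, at 3.17 to 5.85, whose reads may be shared among close copies. The remaining DHRS3 neighbors lay between −0.69 and 2.71. RARB was lower than 4 of its 5 tested neighbors (median −0.48), and ALDH1A3 than 17 of 18 (median −0.25). RARG was lower than 42 of 48 (median 0.19), and ALDH1A2 was higher than 10 of 11 (median −0.11). RDH11, in contrast, was close to its surroundings, with a median of 0.72 over 15 neighbors and 7 of them above it. RARA was higher than 27 of 38 neighbors, whose median was 0.37.

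**Figure D4:**
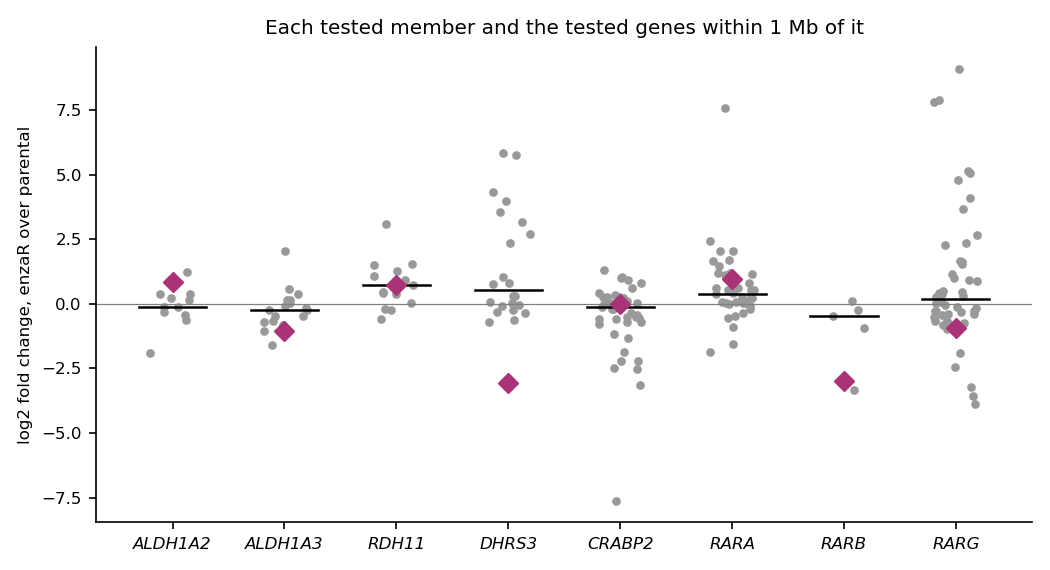
Log2 fold change of LNCaP-enzaR over parental LNCaP for each of the 8 tested retinoic acid genes (diamond) and for the tested genes whose midpoint lies within 1 Mb of it (grey points, horizontal jitter only), with the neighbors' median as a line. DHRS3 sits below all 22 neighbors, while RDH11 (0.75) sits at its neighbors' median (0.72).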

How the data were processed

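RNA sequencing was performed on 3 parental LNCaP and 3 LNCaP-enzaR cultures. The authors trimmed reads with Cutadapt, aligned them to GRCh38 with STAR and a GENCODE annotation and counted them per gene with featureCounts. The deposited values are raw counts, not normalized. The strand setting and the handling of multi-mapping reads are not given in the sources used here, so genes with close copies or overlapping genes are uncertain. Groups and replicate numbers came from sample titles.

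Counts were analyzed with edgeR 4.0.16 in R 4.3.3 (filterByExpr, TMM scaling, robust quasi-likelihood F-test, no covariate). P-values were adjusted over the 19711 genes kept. The limits, an adjusted p of 0.05 and 1.5-fold, are those of the study. The SE of a log2 fold change was derived from its F statistic. Coordinates are the deposited ones. Exonic lengths, transcripts and overlaps were taken from GENCODE v44, in which 99.8% of the genes were found by identifier, and RPKM is CPM per kilobase of merged exons. Ratios within libraries used counts plus 1. Floors of 3 counts cover counting error only.

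Promoter windows are RefSeq's. The test was also run on simulated counts in which few genes changed. That run does not check the scaling of libraries when many genes differ, as they did here. Named genes were all 10 genes of the set, the RXR genes and, of the wider lists, up to 8 called genes with a mean of at least 1 CPM in either line. LRAT, BCO2, SDR16C5, TGM2, RDH10, CYP26C1, KRT8 and KRT18 fall outside this rule and were named after their values were seen. Genes and lists were chosen with earlier results of these data known. Where nothing states separate origins, p-values measure the spread between these cultures. Alternatives were DESeq2 1.42.0, other scalings, filters, gene sets and fold limits, the replicate number as a block, other pseudocounts, and leaving out each library.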

Additional observations from a re-analysis of the deposited data

How the results depend on the processing

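RARA, RARB, RARG, ALDH1A3, DHRS3 and RDH11 kept their direction and their call in 15 alternative fits at the 1.5-fold limit. Of 15 tested named genes of the wider lists, 13 kept their direction and side of the threshold in each fit that could test them. BCO2 lost its call without LNCaP-enzaR replicate 2 (2.09), and RDH10, which was never called, lay at −0.030 with library totals and from −0.026 to 0.023 without 1 library. ALDH1A2 lay between 0.76 and 1.00 when single libraries were left out and was not called in 2 of them. CRABP2, which was never called, changed sign with library totals (−0.024) and ranged from −0.13 to 0.29 without 1 library. Of the 10 genes, 6 to 7 were called without 1 library and 8 without the filter on low counts, CYP26A1 being added. A fold limit of 2 left 3 called, all lower, and 5561 of all genes, and no fold limit gave 13074. At least 10 counts in every library left 4 wider pathway genes and 1 target gene called, a filter that drops genes low in either line and so depends on their change. Under upper-quartile scaling the median gene shifted by 0.10 (log2), higher genes made up 60.9% of calls in place of 54.5%, and the calls of the 10 genes were as before.

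Same-numbered libraries deviated from their group means with correlations of −0.211 to 0.00849 across genes. These values show no sign of pairing by number but cannot exclude it. A fit with replicate number as block called 7 genes of the set and 8212 of all genes, and changed no other call described. Statements on ALDH1A1 and CYP26A1 are limited by depth, at up to 6 and 29 counts per library. The ALDH1A1 to ALDH1A3 ratio (0.83 to 1.81 without 1 library) rests on such counts.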
